A study of Mus musculus with 48 samples.

Results

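The PDGF family was followed in 48 RNA-seq libraries of the mouse heart and diaphragm: the 4 ligand genes Pdgfa, Pdgfb, Pdgfc and Pdgfd and the 2 receptor genes Pdgfra and Pdgfrb. The 6 genes were chosen by name, as the whole gene family, from the 54752 Ensembl genes of the expression matrix, and all 6 had a row there (ENSMUSG00000025856, ENSMUSG00000000489, ENSMUSG00000028019, ENSMUSG00000032006, ENSMUSG00000029231 and ENSMUSG00000024620 in the order above). In GRCm38, Pdgfa lies at chr5:138976014-138997370 and Pdgfb at chr15:79995874-80014977, both on the minus strand, and Pdgfc at chr3:81036416-81214040, Pdgfd at chr9:6168584-6378850 and Pdgfra at chr5:75152292-75198215, all on the plus strand. The list was drawn up with earlier results of these data known, so the p-values set a difference against the spread between mice and are not independent evidence for the family. Values are in TPM, a transcript abundance normalised for transcript length and library total, so that levels of different genes can be compared.

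PDGF ligands are secreted dimers that bind receptor tyrosine kinases on neighbouring cells. PDGF-A and PDGF-C act mainly through PDGFRα, a receptor typical of fibroblasts and other mesenchymal cells. PDGF-B acts on both receptors and PDGF-D mainly on PDGFRβ, the receptor by which pericytes and smooth muscle cells are recruited to blood vessels. Endothelial Pdgfb is best known for that recruitment, whereas lymphatic capillaries normally carry few mural cells. PDGF-C and PDGF-D are secreted with a CUB domain that a protease has to remove before they can bind.

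All mice were Prox1-eGFP knock-in males on C57BL/6, which carry eGFP at the locus of Prox1, a regulator of lymphatic identity, so that eGFP marks lymphatic endothelium. They carried subcutaneous minipumps for 5 to 6 weeks with bovine serum albumin (ctrl), angiotensin II in albumin (angII) or angiotensin II with VEGFCc156s, a VEGF-C mutant specific for VEGFR3 (angII+VEGFC). Lymphatic endothelial cells (LECs) of heart and diaphragm were sorted as CD31-positive, CD45.2-negative, eGFP-positive cells, heart blood endothelial cells (BECs) as the eGFP-negative counterpart, and the cardiomyocyte fraction was a low-speed pellet of the heart digest that was not sorted. Each population had 4 ctrl, 5 angII and 3 angII+VEGFC libraries, each from a different mouse. The labels gave ages of 8 to 16 months, while the study's methods give ages in weeks. The same 12 mice gave the 3 heart populations, and 11 of them gave a diaphragm library. The endothelial libraries were sequenced in 2 batches, and the cardiomyocyte libraries in a batch of their own, so that batch and population cannot be told apart for cardiomyocytes.

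The labels were checked against marker genes. The 6 lymphatic markers summed to 18069 to 43195 TPM in the LEC libraries and to at most 705 TPM in BECs, and the 5 blood endothelial markers to 8593 to 16695 TPM in BECs and at most 5634 TPM in LECs. The cardiomyocyte pellet held other cells: 10 fibroblast markers, such as Col1a1 and Dcn, summed there to 7439 to 13814 TPM, 10 mural markers, such as Rgs5 and Acta2, to 1015 to 2044 TPM, and 6 macrophage and leukocyte markers to 507 to 1678 TPM. Among the BEC libraries, 3 stood apart, those of mice 1 (ctrl), 3 (angII) and 2 (angII+VEGFC), with fibroblast sums of 14055, 8022 and 8913 TPM against 1242 to 2257 TPM in the other 9. Neither marker list contains a PDGF gene. In such bulk libraries fewer cells of a type and less RNA per cell cannot be told apart.

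Promoter sequence is shown for 3 genes whose levels set the populations apart in what follows: Pdgfd, which was higher in BECs than in each other population, Pdgfra, which had its highest level in heart LECs, and Pdgfa, which had its lowest level in BECs. RefSeq promoters matched 4 of the 6 genes (Pdgfa, Pdgfc, Pdgfd and Pdgfra). Each line gives the 250 bases before the annotated start, 5′ to 3′ on the gene's strand, in build GRCm38.p6. Capitals mark matches to any of 4 short words, searched on both strands. The TATA box was searched as TATAAA. The GC box was searched as GGGCGG. An ETS-type word was searched as GGAAGT. The last word, of GATA type, was searched as AGATAA. No match overlaps another in these windows.
Pdgfd (chr9:6168236-6168485, plus strand): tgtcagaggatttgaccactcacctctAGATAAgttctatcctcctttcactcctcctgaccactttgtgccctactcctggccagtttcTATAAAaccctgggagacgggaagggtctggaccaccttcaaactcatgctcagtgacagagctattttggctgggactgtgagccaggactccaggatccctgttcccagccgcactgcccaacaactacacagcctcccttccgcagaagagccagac
Pdgfra (chr5:75152001-75152250, plus strand): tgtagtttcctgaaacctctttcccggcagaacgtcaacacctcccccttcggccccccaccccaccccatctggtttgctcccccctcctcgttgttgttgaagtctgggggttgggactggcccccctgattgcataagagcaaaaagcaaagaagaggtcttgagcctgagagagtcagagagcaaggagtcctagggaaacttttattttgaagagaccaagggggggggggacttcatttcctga
Pdgfa (chr5:138994945-138995194, minus strand, the farther upstream of 2 annotated starts): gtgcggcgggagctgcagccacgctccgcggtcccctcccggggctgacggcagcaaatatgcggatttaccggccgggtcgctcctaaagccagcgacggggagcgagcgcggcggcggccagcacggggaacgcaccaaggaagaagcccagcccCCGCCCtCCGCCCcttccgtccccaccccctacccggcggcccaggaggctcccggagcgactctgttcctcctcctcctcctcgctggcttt

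The Pdgfd promoter held TATAAA, found in 12.4% of the 32851 mouse promoter windows of the same length, and AGATAA, found in 9.99%. The Pdgfa window held the GC box on the opposite strand at 2 places, a word present in 32.7% of all windows, and its GC content was 72.4% against a median of 52.4%. The Pdgfra window held none of the 4 words, which says only that these letters are not in these 250 bases. The Pdgfc window, not printed, held GGAAGT on the opposite strand, a word found in 19.7% of windows. These matches are a description of the sequence.

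Pdgfb and Pdgfd, the ligands of the mural receptor, were the dominant PDGF transcripts of heart BECs. Pdgfb stood at 107 ± 31.2 TPM (SD, n = 12 in each population) in BECs. Heart LECs held 24.6 ± 12.7 TPM, the cardiomyocyte pellet 23.5 ± 11.0 TPM and diaphragm LECs 12.1 ± 5.78 TPM. The lowest BEC library, at 66.0 TPM, lay above the highest library of any other population, at 49.7 TPM. Pdgfb was higher in BECs in 12 of 12 mice against heart LECs (log2 difference of LECs minus BECs on the log2(TPM + 1) scale -2.41 ± 0.30 SE, limma adjusted p = 4.27e-06) and in 11 of 11 mice against diaphragm LECs (-3.02 ± 0.18, adjusted p = 3.45e-10). Below BECs the order was resolved only in part. Cardiomyocytes were above diaphragm LECs in 10 of 11 mice (0.80 ± 0.15, limma adjusted p = 0.000137), and by 1.51 with quantile normalization. Batch and population cannot be told apart in that comparison. Heart LECs and cardiomyocytes differed by 0.21 (adjusted p = 0.611) and heart and diaphragm LECs by 0.63 (95% interval -0.22 to 1.49, adjusted p = 0.423), neither past the threshold. That last difference was -0.23 in the 5 mice of batch 1 and 1.35 in the 6 mice of batch 2.

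Pdgfd followed the same order. Its levels were 118 ± 20.4 TPM in BECs (82.8 to 152, median 122), 29.2 ± 18.7 in heart LECs (11.6 to 72.8, median 23.6), 22.1 ± 3.93 in cardiomyocytes and 19.1 ± 6.43 in diaphragm LECs, and the BEC libraries again overlapped with no other population. The difference was -2.16 ± 0.19 between heart LECs and BECs (adjusted p = 3.75e-08) and -2.62 ± 0.16 between diaphragm LECs and BECs (adjusted p = 3.74e-10). The 3 lower populations could not be ordered, with adjusted p of 0.237 for heart against diaphragm LECs, 0.383 for cardiomyocytes against heart LECs and 0.129 for cardiomyocytes against diaphragm LECs. With quantile normalization the cardiomyocyte level was above both past the threshold, by 0.58 against heart LECs (limma adjusted p = 0.0476) and by 1.02 against diaphragm LECs (adjusted p = 5.05e-05). Without it these differences were -0.20 and 0.28, so the sign changed only against heart LECs.

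Pdgfa, the ligand of PDGFRα, had the flattest profile. It stood at 31.4 ± 8.46 TPM in heart LECs, 29.8 ± 5.77 in cardiomyocytes, 28.7 ± 12.1 in diaphragm LECs and 21.5 ± 3.71 in BECs. Heart LECs were higher than BECs by 0.49 ± 0.13 on the log2 scale (10 of 12 mice, limma adjusted p = 0.00911), cardiomyocytes by 0.45 ± 0.10 (12 of 12 mice, adjusted p = 0.000441) and diaphragm LECs by 0.52 ± 0.14 (9 of 11 mice, adjusted p = 0.00723). The other 3 populations did not differ past the threshold, and the interval for heart minus diaphragm LECs ran from -0.36 to 0.28. The diaphragm LEC library of mouse 4 (angII) lay at 1.22 TPM, where the other 11 ran from 15.6 to 50.9 TPM. That mouse had no heart library and so entered no paired difference, and in a fit without the mouse block, which includes it, the difference of diaphragm LECs from BECs was 0.16 (adjusted p = 0.783).

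Pdgfc, the other PDGFRα ligand, was scarce. Its mean was 3.30 ± 1.54 TPM in cardiomyocytes (1.90 to 6.20), 1.35 ± 0.919 in BECs, 0.697 ± 0.595 in diaphragm LECs and 0.396 ± 0.585 in heart LECs. At least 1 TPM was reached by 2 of 12 heart LEC, 5 of 12 diaphragm LEC and 8 of 12 BEC libraries. It was listed at 0 in 2 heart LEC and 2 diaphragm LEC libraries. The mean of heart LECs lay below that of BECs in these values, with no test given, because the gene passed the filter on low values in that comparison only through the BEC libraries.

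**Figure D1:**
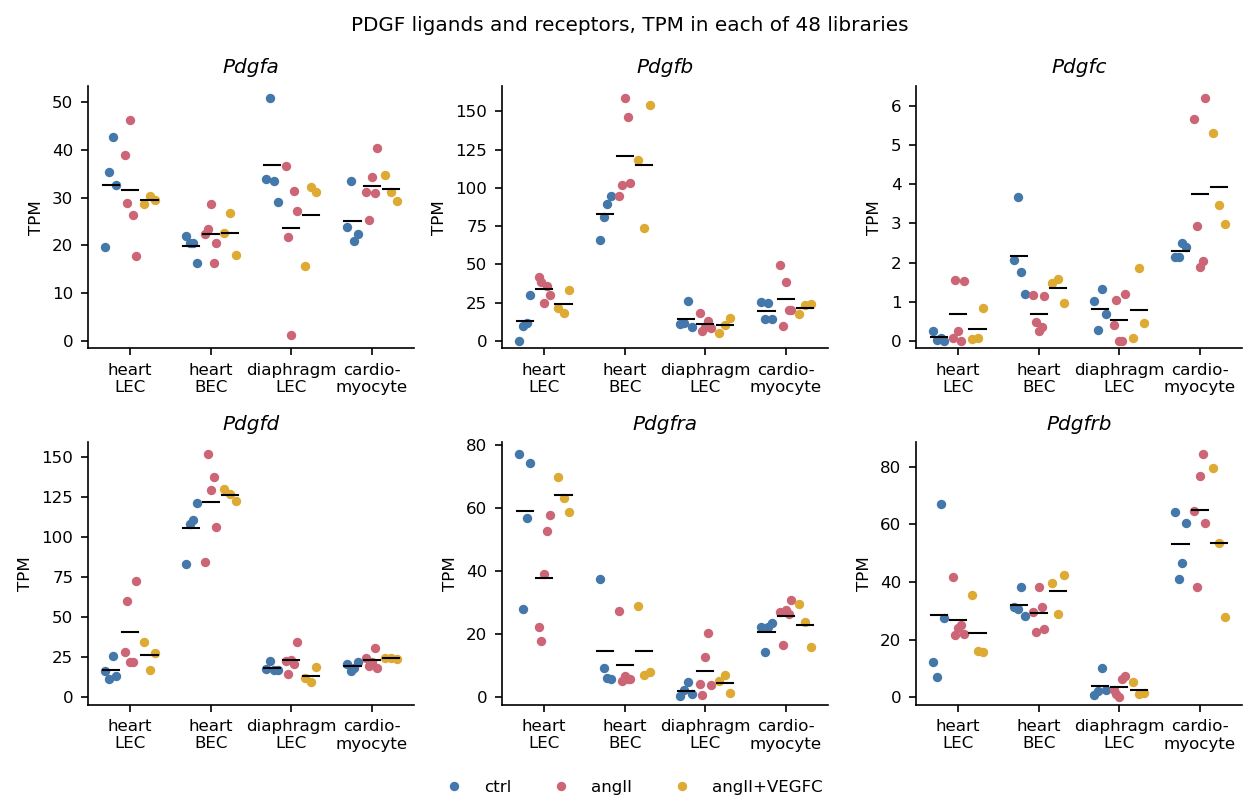
TPM of the 6 PDGF genes (linear axis, a scale for each gene) in each of 48 libraries, by population and treatment, with a bar at each group mean. Pdgfb and Pdgfd are highest in all BEC libraries (66.0 to 159 and 82.8 to 152 TPM), and Pdgfra is highest in heart LECs, with 3 BEC libraries of 27.2 to 37.5 TPM above the other 9.

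Summed over the 4 ligands, BECs held 247 ± 44.4 TPM, heart LECs 85.6 ± 26.3, cardiomyocytes 78.8 ± 15.3 and diaphragm LECs 60.5 ± 17.1. The composition differed as well as the total. In BECs, Pdgfd made up 47.8 ± 4.95% of the sum, Pdgfb 42.6 ± 6.04% and Pdgfa 8.97 ± 2.17%. In heart LECs the shares were 32.8 ± 12.6%, 26.9 ± 12.1% and 39.9 ± 14.0%, and in LECs of the diaphragm 33.3 ± 13.7%, 19.8 ± 6.24% and 45.8 ± 14.6%. Pdgfa was thus at most 12.7% of the ligand transcripts in any BEC library.

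**Figure D2:**
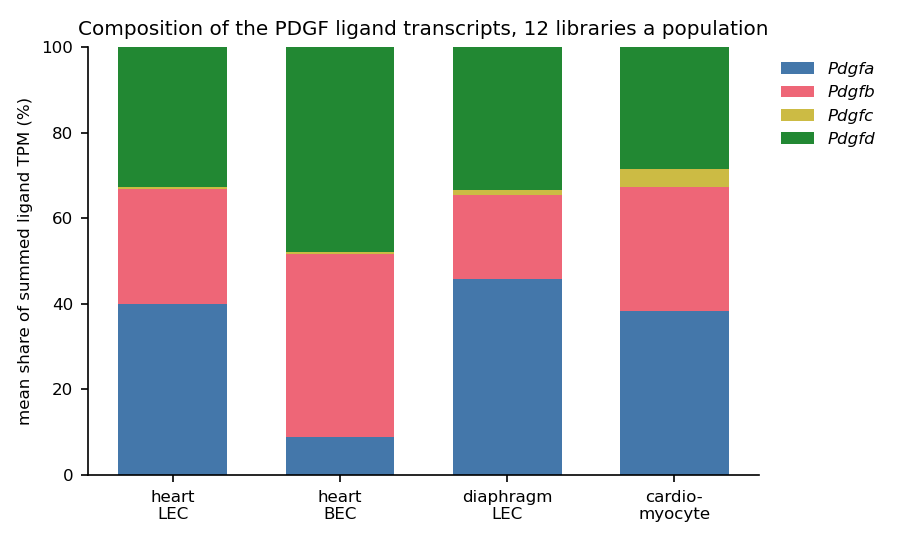
Mean share of each ligand in the summed PDGF ligand TPM (percent, stacked from 0 to 100), for 12 libraries of each population. Pdgfa takes 8.97% in BECs and 38.3 to 45.8% in the other 3 populations.

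Among the receptors, Pdgfra was highest in heart LECs. It stood there at 51.4 ± 20.2 TPM (17.8 to 77.0, median 57.2), above 87.1% of the genes that averaged 1 TPM or higher in heart LECs. Cardiomyocytes held 23.3 ± 5.39 TPM, BECs 12.8 ± 11.4 TPM (median 6.98) and diaphragm LECs 5.33 ± 5.87 TPM (median 4.04). Heart LECs were higher than diaphragm LECs of the same mouse in 11 of 11 mice (3.57 ± 0.32, limma adjusted p = 6.9e-07) and higher than BECs in 11 of 12 (2.15 ± 0.27, adjusted p = 5.69e-06). Cardiomyocytes were lower than heart LECs in 11 of 12 mice (-1.01 ± 0.17, adjusted p = 4.4e-05), a call that quantile normalization ended (-0.22, adjusted p = 0.324). The endothelial differences were of like size within both batches, at 3.59 and 3.55 against diaphragm LECs and 2.04 and 2.26 against BECs.

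In BECs, Pdgfra was high in the libraries with high fibroblast markers. The 3 libraries of high fibroblast sums held 37.5, 27.2 and 29.0 TPM, and the other 9 ran from 5.20 to 9.22 TPM. Those mice were picked after seeing the data and held the highest Pdgfra among BECs, so leaving them out had to lower the BEC level. The fits without them are therefore no independent check. In those fits heart LECs lay above BECs by 2.65 ± 0.21 (limma adjusted p = 1.07e-07). The difference of diaphragm LECs from BECs there was -0.77 ± 0.37 (adjusted p = 0.157), against -1.44 ± 0.41 with all mice (adjusted p = 0.0129). In heart LECs the fibroblast sums were 954 to 2941 TPM, near those of the 9 BEC libraries, while Pdgfra was higher: per 1000 TPM of fibroblast markers it had a median of 28.9 TPM in heart LECs, 4.00 in BECs, 3.46 in diaphragm LECs and 2.19 in cardiomyocytes. The markers did not all move alike. With all mice 8 of the 10 were called lower in heart LECs than in BECs and 0 higher, where 23.6% of all genes were called. Dcn, the largest part of the heart LEC sum, had a higher median in heart LECs (1019 TPM) than in BECs (437 TPM). The part of fibroblasts in the heart LEC level was not tested.

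**Figure D3:**
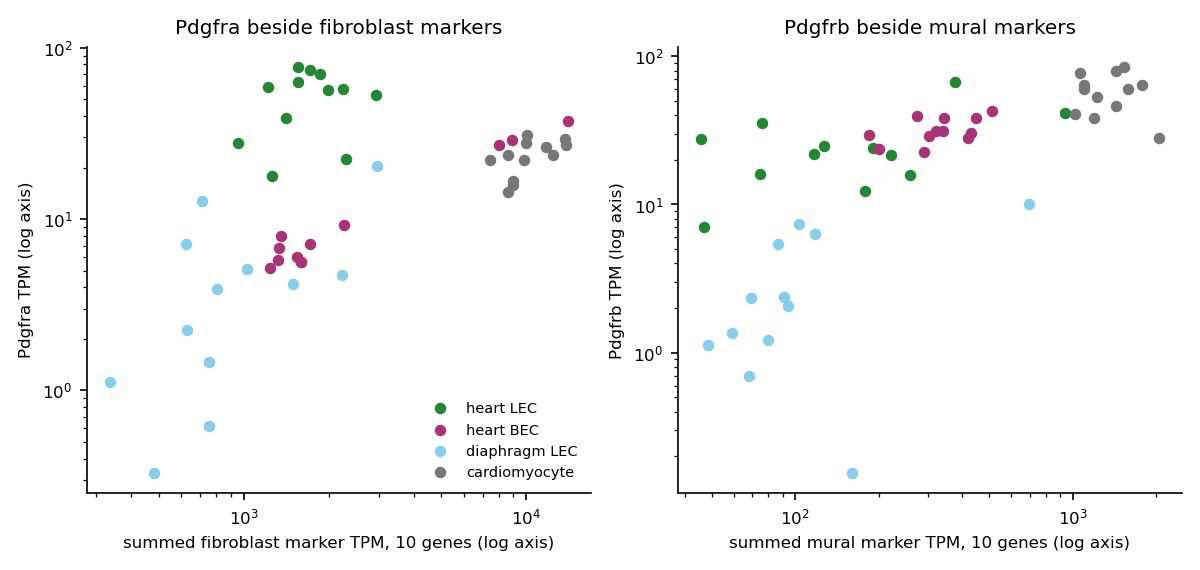
Left, Pdgfra TPM against the summed TPM of 10 fibroblast markers, and right, Pdgfrb TPM against that of 10 mural markers, both on log axes, with a point for each of 48 libraries. Heart LECs (17.8 to 77.0 TPM Pdgfra) sit above the 9 BEC libraries of like fibroblast sums (5.20 to 9.22 TPM), and 3 BEC libraries sit beside the cardiomyocytes.

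Pdgfrb, the receptor of pericytes and smooth muscle, was highest in the cardiomyocyte pellet at 58.1 ± 17.4 TPM. BECs held 32.0 ± 6.27 TPM, heart LECs 26.3 ± 16.0 and diaphragm LECs 3.38 ± 3.15. Cardiomyocyte libraries were above BECs in 11 of 12 mice (0.80 ± 0.14, adjusted p = 4.61e-05), beside higher mural sums (1015 to 2044 TPM against 185 to 513 TPM). The difference of heart LECs from BECs did not pass the threshold (-0.45, 95% interval -0.87 to -0.03, adjusted p = 0.11). Both were above diaphragm LECs, heart LECs by 2.61 ± 0.23 (11 of 11 mice, adjusted p = 6.39e-07) and BECs by a diaphragm minus BEC difference of -3.05 ± 0.24 (11 of 11 mice, adjusted p = 1.05e-08). The mural markers moved in part with this order, with medians of 330, 153 and 88.9 TPM in BECs, heart LECs and LECs of the diaphragm, and Pdgfrb per 1000 TPM of mural markers had medians of 93.5, 164 and 23.1 TPM. Heart LEC libraries spread widely: the ctrl library of mouse 9 held 67.1 TPM with a mural sum of 376 TPM, and the angII library of mouse 3 held 41.6 TPM with a mural sum of 936 TPM.

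The balance of the receptors was as follows. Pdgfra exceeded Pdgfrb in 9 of 12 libraries of heart LECs and 6 of 12 of diaphragm LECs, but in 1 of 12 of BECs and 0 of 12 of cardiomyocytes. The log2 ratio of Pdgfrb to Pdgfra was -1.02 ± 1.03 in heart LECs, 1.59 ± 0.94 in BECs and 1.25 ± 0.25 in cardiomyocytes.

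Calls were counted over the members that reached 1 TPM in at least 3 libraries of both populations compared, which left out Pdgfc wherever heart LECs were one of them. The background shares and the medians of all genes rest on a looser filter, 1 TPM in at least 3 of the compared libraries together. They therefore include genes present in only 1 of the populations. Between heart LECs and BECs 4 of 5 genes passed the threshold (2 higher and 2 lower in LECs), where 23.6% of all genes tested did. Between diaphragm LECs and BECs 5 of 6 passed (background 27%), and between heart and diaphragm LECs 2 of 5, the receptors (background 4.37%). Against cardiomyocytes 6 of 6 genes passed for BECs, 2 of 5 for heart LECs and 4 of 6 for diaphragm LECs, with backgrounds of 75.2%, 69.1% and 66%. In those 3 comparisons the median gene lay 0.60 to 0.70 lower in cardiomyocytes on the log2 scale, and the medians of the members counted were 0.62, -0.05 and 1.07. With quantile normalization, which removes most of that shift, Pdgfa changed sign against both LEC populations and Pdgfd against heart LECs, so these genes are not ordered between cardiomyocytes and the LECs named.

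**Figure D4:**
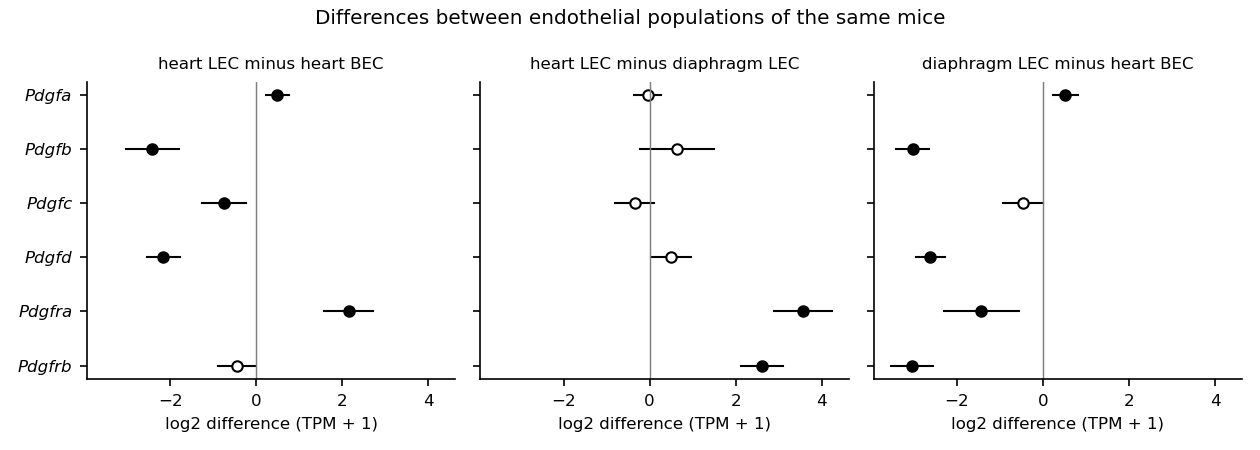
Log2 differences of the 6 PDGF genes between endothelial populations of the same mice, on the log2(TPM + 1) scale, with 95% intervals and filled points where the limma adjusted p was under 0.05. Pdgfb (-2.41 and -3.02) and Pdgfd (-2.16 and -2.62) lie far to the left against BECs, and only the receptors (3.57 and 2.61) are filled between the LEC populations. Pdgfc passed the filter on low values through 1 population only in both comparisons with heart LECs. Its filled point for heart LECs minus BECs is therefore not read as a difference.

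The treatment comparisons asked whether angiotensin II, alone or with VEGFCc156s, changed these genes in any population. None of the 69 tests of a PDGF gene in a population passed the threshold (limma, smallest adjusted p = 0.254), and 8 of 69 had an unadjusted p under 0.05, as did 1.32% to 15.3% of all genes in the 12 comparisons. The background was low as well: the share of all genes called was 0.0261% for angII against ctrl in heart LECs, 0.0892% for angII and 0.663% for angII+VEGFC against ctrl in cardiomyocytes, and 0% in the other 9 comparisons. Pdgfc was too low for the filter in heart LECs, so 5 members were tested there and 6 elsewhere.

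The largest estimates were those of Pdgfb in heart LECs. The ctrl libraries held 0, 9.77, 11.8 and 29.9 TPM, the angII libraries 24.8, 29.9, 35.96, 38.3 and 42.0 TPM, and the angII+VEGFC libraries 18.1, 21.7 and 33.0 TPM. Of the ctrl libraries 1, at 29.9 TPM, lay within the angII range, and the angII+VEGFC libraries overlapped with both other groups. The difference of angII from ctrl was 2.09 ± 0.61 (95% interval 0.81 to 3.37, unadjusted p = 0.00325 and adjusted p = 0.254 by limma), at 3.18 in batch 1 and 1.06 in batch 2, and that of angII+VEGFC from ctrl was 1.60 ± 0.70 (adjusted p = 0.915). The ctrl library of mouse 1, listed at 0, decided much of the size: without it the angII difference was 1.20 (adjusted p = 0.143) and the angII+VEGFC difference 0.61 (adjusted p = 0.949).

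Pdgfd in heart LECs ran the same way, with 11.6, 13.4, 16.3 and 25.4 TPM in ctrl and 21.7, 21.8, 28.3, 59.8 and 72.8 TPM in angII. The groups overlapped, and the difference was 1.05 ± 0.40 (adjusted p = 0.369). Beside both ligands, the blood endothelial markers of the same libraries were higher in angII, at 2409 to 5634 TPM against 1511 to 2366 TPM in ctrl and 1813 to 1994 TPM in angII+VEGFC. The 2 libraries of highest Pdgfd, of mice 14 and 15, held the highest sums, 5199 and 5634 TPM. The part of blood endothelial RNA in these differences was not tested.

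Pdgfra in heart LECs went the other way. Its values were 27.9, 56.7, 74.3 and 77.0 TPM in ctrl, 17.8, 22.3, 38.9, 52.8 and 57.6 TPM in angII and 58.9, 63.1 and 69.9 TPM in angII+VEGFC. Every angII+VEGFC library lay above every angII library, by a small margin. The difference was -0.83 ± 0.32 for angII against ctrl (adjusted p = 0.373) and 1.30 ± 0.38 for angII+VEGFC against angII (unadjusted p = 0.00361, adjusted p = 0.413, limma), and within batches, without an age term, the latter was 0.76 and 1.04. The median gene lay at -0.37 in that comparison and at 0.23 in angII against ctrl, so that both Pdgfra estimates ran against the shift of all genes. The fibroblast sums of these libraries were 954 to 1982 TPM in ctrl, 1262 to 2941 TPM in angII and 1221 to 1865 TPM in angII+VEGFC, and their part in the Pdgfra differences was not tested.

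**Figure D5:**
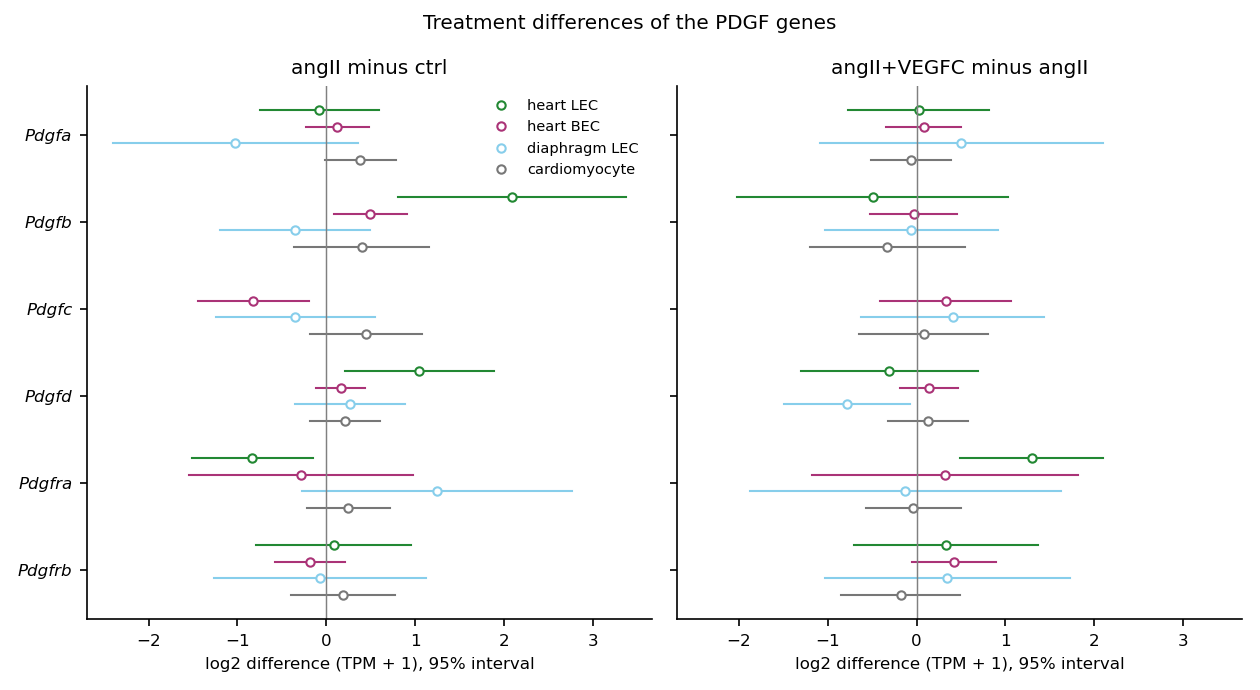
Log2 differences of the PDGF genes by treatment in each population, on the log2(TPM + 1) scale, with 95% intervals. All points are open because no adjusted p was under 0.05, and the largest estimate is that of Pdgfb in heart LECs, 2.09.

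In BECs, where Pdgfb was most abundant, the ctrl libraries held 66.0, 80.9, 89.3 and 94.4 TPM and the angII libraries 94.8, 102, 103, 147 and 159 TPM. The groups did not overlap, though the gap between them was less than 1 TPM, and the difference was 0.49 ± 0.19 (unadjusted p = 0.0218, adjusted p = 0.862 by limma). The angII+VEGFC libraries spread over both groups, at 73.5, 118 and 154 TPM. Pdgfc stood at 0.256 to 1.18 TPM in angII BECs and at 1.20 to 3.67 TPM in ctrl, again without overlap (-0.82 ± 0.29, adjusted p = 0.82). Over the 3 treatment comparisons in BECs, the largest estimate of Pdgfd was 0.30 and that of Pdgfrb was 0.42. The angII+VEGFC and ctrl groups also did not overlap for Pdgfd in BECs and for Pdgfc and Pdgfd in cardiomyocytes, none of them past the threshold. How often such small groups fail to overlap over all genes was not counted. The lack of overlap, here and for Pdgfra in heart LECs, therefore only describes these values.

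In diaphragm LECs, the receptor Pdgfra had ctrl values of 0.329, 1.12, 2.25 and 4.71 TPM and angII values of 0.621, 3.92, 4.17, 12.8 and 20.4 TPM, an overlapping difference of 1.25 ± 0.71 (adjusted p = 0.391) that was 0.63 without the angII library of mouse 18 and 0.80 without the ctrl library of mouse 1. Pdgfa stood at 29.1 to 50.9 TPM in ctrl and 21.8 to 36.5 TPM in angII apart from mouse 4 (-1.03 ± 0.64, adjusted p = 0.429), and without the library of mouse 4 the difference was -0.26 ± 0.21 (adjusted p = 0.595). Among the alternatives run it passed the threshold in 1, with the first component of the residuals as a covariate (adjusted p = 0.0467), a fit in which 520 genes were called against 0 without it. The difference of Pdgfd between angII+VEGFC and angII did not pass the threshold (-0.79 ± 0.33, adjusted p = 0.567) and was -0.46 without the angII+VEGFC library of mouse 6 (adjusted p = 0.962). In cardiomyocytes the largest estimate was 0.52 ± 0.34, for Pdgfc in angII+VEGFC against ctrl (adjusted p = 0.552), and it was 0.15 without the angII+VEGFC library of mouse 2.

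Whether a response differed between endothelial populations was tested as an interaction, in a fit without a mouse block. None of 36 tests passed (limma, smallest adjusted p = 0.302), 5 of 36 had an unadjusted p under 0.05, as did 4.89% to 11.0% of all genes in the 6 comparisons, and the background was 0.00611% for angII against ctrl between the LEC populations and 0% in the other 5 comparisons. Of those 5, 1 was Pdgfc in heart LECs minus BECs. That gene reached 1 TPM in 2 of 12 heart LEC libraries and passed the filter through the other populations, so its value is not read as a difference. The estimate for the angII response of Pdgfb in heart minus diaphragm LECs was 2.37 ± 0.72 (limma unadjusted p = 0.00246, adjusted p = 0.302). For Pdgfra it was -1.99 ± 0.85 (adjusted p = 0.46). For Pdgfb in heart LECs minus BECs it was 1.58 ± 0.72 (adjusted p = 0.676). Both Pdgfb estimates include the ctrl heart LEC library of mouse 1, listed at 0. Without it the heart LEC difference was 1.20 in place of 2.09, and no interaction was fitted without it.

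The wider pathway was read from 39 genes in 4 lists. Between heart LECs and BECs 7 were higher and 16 lower in LECs, between heart and diaphragm LECs 6 were higher and 3 lower in the heart, and between diaphragm LECs and BECs 5 were higher and 12 lower in the diaphragm, where 23.6%, 4.37% and 27% of all genes were called. Their median differences were -0.25, -0.09 and -0.14, beside 0.20, 0.13 and 0.03 for all genes. Of the coreceptors and modulators, Nrp1, a coreceptor for VEGF and PDGF, stood at 725 ± 84.3 TPM in BECs, while heart LECs held 111 ± 95.6 TPM and diaphragm LECs 17.8 ± 12.4 TPM, so that it separated the LEC populations as well (2.59 ± 0.25, adjusted p = 1.8e-06). By treatment, in the order ctrl, angII and angII+VEGFC, Nrp1 means were 58.4, 181 and 64.3 TPM in heart LECs. In diaphragm LECs they were 15.3, 25.7 and 7.86 TPM. The angII libraries of heart LECs also held the highest blood endothelial sums of that population, whose part was not tested. Pdgfrl, which encodes a receptor-like protein without a kinase domain, followed Pdgfra, at 56.7 ± 30.9 TPM in heart LECs, 8.21 ± 6.39 in BECs and 5.31 ± 4.00 in diaphragm LECs. Sparc, a matricellular protein that binds PDGF-B, was 3761 ± 730 TPM in BECs and 219 ± 173 in diaphragm LECs (-4.37 ± 0.25, adjusted p = 1.54e-10).

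Of the proteases that process PDGF precursors, the proprotein convertase gene Pcsk6 was higher in both LEC populations than in BECs, with 25.8 ± 11.6 TPM in the heart and 40.2 ± 18.1 TPM in the diaphragm against 4.74 ± 5.53 TPM. Pcsk5 separated heart from diaphragm LECs (14.6 ± 6.39 against 3.68 ± 3.93 TPM, difference 2.24 ± 0.26, adjusted p = 1.78e-05). Of 18 receptor signalling genes, which encode kinases, adaptors and phosphatases downstream of the receptors, 2 were higher and 9 lower in heart LECs than in BECs, and of 7 attenuation genes 2 were higher and 1 lower, beside 3923 higher and 3014 lower of all genes tested, 23.6% in both directions together.

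The 39 genes were tested in every treatment comparison, and 1 passed the threshold in 1 of them. This was Sparc in cardiomyocytes for angII+VEGFC against ctrl, where 0.663% of all genes were called. Sparc rose from 1244 ± 193 TPM in ctrl (n = 4) to 3545 ± 1477 in angII+VEGFC (n = 3), a difference of 1.38 ± 0.27 (limma adjusted p = 0.0386). For angII alone it stood at 2858 ± 559 TPM (n = 5, 1.23 ± 0.24, adjusted p = 0.0684). The fibroblast sums of the pellet ran from 7439 to 9801 TPM in ctrl, 8953 to 13814 TPM with angII and 8972 to 13752 TPM with angII+VEGFC. Of the 10 fibroblast markers in the pellet, 2 were called higher for angII+VEGFC against ctrl (median difference 1.02). For angII against ctrl 1 was called higher (median difference 1.00), where 0.0892% of all genes were called. The part of fibroblast RNA in the Sparc difference was not tested. In heart LECs the smallest p-values for angII against ctrl were those of Sparc (1.40 ± 0.29, adjusted p = 0.121) and Lrp1, an endocytic receptor that associates with PDGFRβ (2.29 ± 0.53, adjusted p = 0.168). Most fibroblast markers moved with them. Their median difference was 1.80, and 9 of 10 had an unadjusted p under 0.05, as did 10.9% of all genes, with Dcn among them in the other direction. Of the markers 1, Col1a2, passed the threshold (2.84, adjusted p = 0.0293 by limma), as did 0.0261% of all genes, while Dcn stood at -0.53. The part of fibroblast RNA in these differences was not tested. In BECs the smallest p-values were those of Pcsk5 (-0.64, adjusted p = 0.809) and Rasa1 (0.39, adjusted p = 0.898), and in diaphragm LECs those of Ptprj (1.74, adjusted p = 0.297) and St14 (1.44, adjusted p = 0.303).

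The genes most like each member were ranked by Pearson correlation of log2(TPM + 1) across the 48 libraries, which share mice, batches and cell populations. For Pdgfd they were Itga1 (r = 0.96), Cyth1 (0.953) and Adgrl4 (0.94), for Pdgfb Adgrg1 (0.898), Hdac5 (0.886) and Notch4 (0.875), and for Pdgfrb the pericyte marker Rgs5 (0.913), Ccdc80 (0.91) and Crispld1 (0.895). For Pdgfra they were Pdgfrl (0.844), Hand2os1 (0.821) and Hand2 (0.812), for Pdgfa Fdx1l (0.834), Ccdc90b (0.833) and Med9 (0.795), and for Pdgfc Adora2b (0.816), Lgals1 (0.788) and Sod3 (0.777). Within the family the highest value was that of Pdgfb with Pdgfd (0.815), followed by Pdgfra with Pdgfrb (0.593).

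When the mean of each population and treatment was subtracted, over the 36 endothelial libraries, Pdgfb and Pdgfd no longer moved together (r = 0.076). Pdgfd was closest to Adgrl4 (0.816), Itga1 (0.787) and Fbxl20 (0.751), and Pdgfrb was closest to Rgs7 (0.778), Rgs5 (0.776) and C1qtnf9 (0.765). Pdgfra was closest to Abca6 (0.831), Col6a1 (0.815) and Abca8a (0.796), and Pdgfb to Rnd2 (0.874), Sephs1 (0.868) and Riox1 (0.865). Pdgfa was closest to Gpr137 (0.902), Tm7sf2 (0.898) and Dcps (0.898), and Pdgfc to Derl3 (0.714), Trav16n (0.7) and Smoc1 (0.68).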

How the data were processed

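The authors aligned the reads to GRCm38 with STAR 2.5.3a, quantified Ensembl genes with Salmon 0.12.0 and deposited 1 matrix in TPM, whose columns each summed to 997657 to 999929 over 54752 genes. TPM keeps no read count, so the depth is unknown, and 12924 to 25896 genes per library reached 1 TPM. Groups, mice, ages and batches came from the labels. The members and gene lists were chosen with earlier results of these data known. Values were log2(TPM + 1), genes that reached 1 TPM in 3 or more of the compared libraries were fitted with limma 3.58.1 (R 4.3.3, variance trend), and p-values were Benjamini-Hochberg adjusted over all genes, with a threshold of 0.05. Treatment was fitted within a population on all 3 groups, with age and, for endothelial cells, batch. Populations were compared with the mouse as a block, since the labels number each animal. The interaction used 36 endothelial libraries with age and batch but no mouse block, so libraries of the same mouse were treated as independent. Named were all 6 members, for each the 3 genes of highest correlation, pathway genes past the threshold in a treatment comparison or else the 2 of smallest p, and the 3 largest population differences. The fits were also run on simulated data. Those libraries were drawn independently, with a reduced part of each gene's SD and no mouse, batch or age effects. They do not show how the fits do at the real spread between mice. Figures were drawn with matplotlib 3.10.9 in Python 3.11.15.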

Additional observations from a re-analysis of the deposited data

Results flagged for a closer look

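The highest and the lowest library of each group of 4 or 5 were compared with the others of the group, over 48 groups of a PDGF gene, and 5 stood apart; about 1 in 20 groups does so by chance. For Pdgfra they were the BEC libraries of mouse 1 (ctrl, 37.5 TPM, the next 9.22) and of mouse 3 (angII, 27.2 TPM, the next 6.77), 2 of the 3 libraries with high fibroblast markers, and the cardiomyocyte ctrl library of mouse 5 (14.5 TPM, the next 22.2). Pdgfrb stood apart in the angII heart LEC library of mouse 3 (41.6 TPM, the next 25.0), which also held the highest mural sum of the endothelial libraries, 936 TPM. Pdgfd stood apart in the ctrl diaphragm LEC library of mouse 5 (22.3 TPM, the next 17.4).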

How the results depend on the processing

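The number of PDGF genes past the threshold changed by more than 1.5 times in 3 alternatives and stayed within that in 228: in angII against ctrl of diaphragm LECs with 1 surrogate variable (1 against 0; the component was computed as the first singular vector of the residuals), and with ctrl mice only, a fit of fewer samples, in heart LECs against BECs (3 against 5, Pdgfc included) and cardiomyocytes against BECs (3 against 6). Leaving out each library in turn left the count at 0 in every treatment comparison. The mouse block changed no call of a PDGF gene in the interaction (2.37 for Pdgfb between LEC populations with the block). Over all genes, calls for angII against ctrl between the LEC populations were 7 with the block and 2 without. Without the block in the population comparisons, which adds the library of mouse 4, Pdgfa gave 0.33 for heart against diaphragm LECs and 0.28 for cardiomyocytes against diaphragm LECs, both reversed, and its difference between diaphragm LECs and BECs was lost (0.16, adjusted p = 0.783). With ctrl mice only, heart minus diaphragm LECs reversed for Pdgfb (-0.82) and Pdgfd (-0.18) and cardiomyocytes minus heart LECs for Pdgfd (0.25); none of these was a call. Quantile normalization reversed cardiomyocytes minus heart LECs for Pdgfa (0.74) and Pdgfd (0.58) and cardiomyocytes minus diaphragm LECs for Pdgfa (0.72). Without the 3 mice of high fibroblast sums, an alternative chosen after seeing the data, Pdgfb of cardiomyocytes minus heart LECs was -0.24. The cause of these changes was not tested. Over all genes, calls for angII against ctrl ranged from 0 to 273 in cardiomyocytes (14 in the reported fit) and from 0 to 31 in heart LECs (7), and for angII+VEGFC against ctrl of cardiomyocytes from 0 to 852 when 1 library was left out (104). No paired analysis of treatment was possible because its groups hold different mice.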

Other observations

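Platelets store PDGF, and their 5 markers, such as Pf4, summed to 37.6 to 169 TPM in BECs, 4.17 to 58.9 TPM in heart LECs, 14.8 to 129 TPM in diaphragm LECs and 115 to 212 TPM in cardiomyocytes. Schwann cell markers (4 genes) reached 144 TPM in 1 diaphragm LEC library and at most 23.3 TPM in the libraries of the other populations. Skeletal muscle markers (5 genes) were at most 43.8 TPM in diaphragm LECs and 121 TPM in cardiomyocytes, and 5 cardiomyocyte markers summed to at least 4794 TPM in cardiomyocytes and at most 537 TPM in endothelial libraries. The 4 pan-endothelial markers stood at 1526 to 4095 TPM in sorted cells and 370 to 654 TPM in the pellet. Their part in the PDGF levels was not tested. Depth is unknown for TPM values, and the spread between mice limits what the treatment comparisons can show.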
